A study of Homo sapiens with 3 samples.

Results

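The genes described here code for the metalloproteases of the ADAM, ADAMTS and matrix metalloproteinase (MMP) families and for their tissue inhibitors (TIMPs), measured in CAMA1 cells. CAMA1 is an established line from a human breast cancer, estrogen receptor positive and FGFR1-amplified per its labels. They were chosen by symbol alone, as every entry named MMP with a number and an optional A or B, ADAM with a number, ADAMTS with a number, or TIMP1 to TIMP4. The symbols of 69 among 26485 entries fitted, and these were 24 MMP, 22 ADAM, 19 ADAMTS and 4 TIMP genes, and 66 of them are protein-coding. The series holds 1 group: 3 libraries of CAMA1 cells of fewer than 10 passages, kept for 48 h in medium without estradiol, with no treated group and no added agent. Poly-A RNA was sequenced, and the labels call the libraries biological replicates without saying whether they were grown separately, so any p-value measures the spread between these libraries alone.

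MMPs, ADAMs and ADAMTS proteases use a zinc ion held by histidines in their active site. MMPs cut collagen, gelatin and other matrix proteins, ADAMs are membrane proteins that mostly shed the outer parts of other membrane proteins such as growth factor precursors and Notch, and ADAMTS proteases are secreted and cut proteoglycans, procollagens or von Willebrand factor. TIMPs block these enzymes by pushing their first cysteines against the zinc. In breast tumours many MMPs are known to come from fibroblasts, endothelium and leukocytes of the stroma rather than from the epithelial cells, and a cell line culture has no such stroma.

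The zinc site is shown first, because most of the proteases share it and some members with detected transcripts do not. Its motif is HEXXHXXGXXH, in which the histidines (H) bind zinc and the glutamate (E) takes part in catalysis. Coding sequence was found in GENCODE 29 (GRCh38) for 62 of the 65 protease entries, and 49 of these held the complete motif. The codons below run 5′ to 3′, and capitals mark the codons of the 3 histidines and the glutamate.
ADAM15: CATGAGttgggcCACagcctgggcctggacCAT
ADAM10: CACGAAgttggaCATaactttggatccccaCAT
ADAM17: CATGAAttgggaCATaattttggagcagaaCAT
ADAMTS19: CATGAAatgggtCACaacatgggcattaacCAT
MMP15: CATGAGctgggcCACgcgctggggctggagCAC

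In 5 ADAMTS genes (ADAMTS1, ADAMTS4, ADAMTS8, ADAMTS9 and ADAMTS15) the 3 histidines and the glutamate were kept while the motif's glycine was not, as the site of ADAMTS4 shows. The motif was lacking in 8 ADAMs, of which ADAM22, ADAM11 and ADAM32 were detected in CAMA1 cells. Aligned with the site of ADAM15, ADAM22 kept 1 of the 4 key residues, and its codons at those positions are in capitals.
ADAMTS4: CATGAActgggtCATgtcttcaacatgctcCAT
ADAM22: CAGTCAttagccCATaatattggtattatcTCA

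Inhibitor genes carry instead the cysteine pair of the mature N-terminus, which is the part of a TIMP that reaches the zinc. The pair is shown with its codons in capitals for the inhibitors detected in CAMA1 cells.
TIMP2: TGCagcTGCtccccg
TIMP1: TGCaccTGTgtccca
TIMP3: TGCacaTGCtcgccc

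CAMA1 cells expressed a small set of these genes, dominated by 4 membrane-bound ADAM sheddases. Detection meant 10 counts or more in every one of the libraries, which 26 of the 69 members (37.7%) reached, against 67.2% of 19151 protein-coding entries. At most 3 counts in every library, called not detected, were found for 29 members (42.0%, against 24.0% of protein-coding entries), among them 14 with no count at all, and the other 14 lay between. Libraries held 26473939, 26592335 and 30745412 counts in replicates 1, 2 and 3. The median member stood at 0.0939 TPM (counts divided by gene length and scaled to 1 total in every library) against 7.93 TPM over protein-coding entries. A mean of 10 TPM or above was reached by 9 members, or 13.0%, against 47.7% of protein-coding entries. All members together took 0.102 ± 0.00132% of counts (SD, n = 3, as for all errors below).

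ADAM genes held most of the module. Summed per family, ADAM genes made up 72.7 ± 0.289% of the TPM of all members, ADAMTS genes 11.5 ± 0.513%, TIMP genes 10.4 ± 0.688% and MMP genes 5.47 ± 0.360%. The summed ADAM level was 434, 438 and 413 TPM in replicates 1, 2 and 3, and that of MMP genes 31.6, 31.5 and 33.5 TPM. On the log2 scale, ADAM exceeded MMP genes by 3.73 ± 0.10. Genes with the complete zinc motif carried 94.0 ± 0.174% of the TPM of the proteases, those with the glycine replaced 3.93 ± 0.113% and those lacking the motif 2.02 ± 0.0709%.

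**Figure D1:**
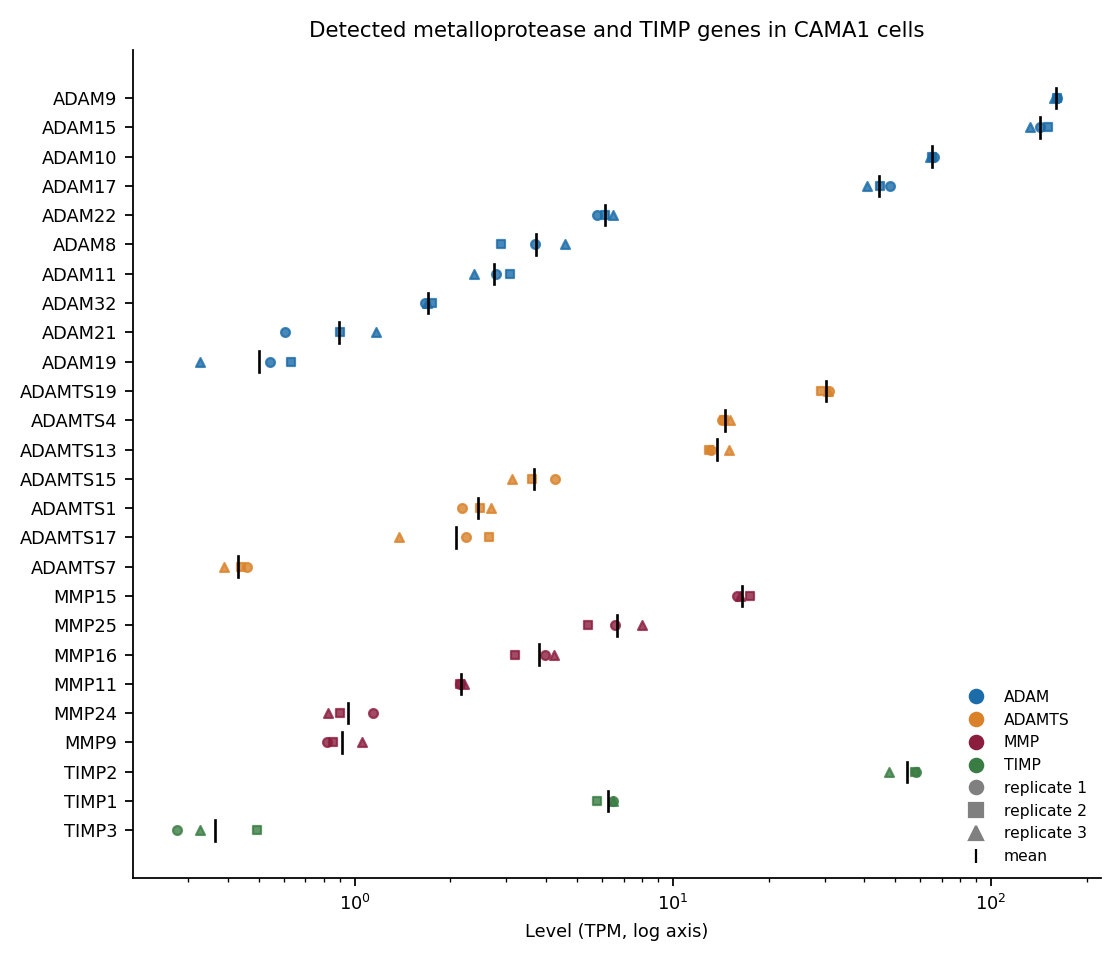
Level of each detected member in TPM (log axis), grouped by family, with a symbol for each of the 3 libraries and a black bar at the mean. ADAM9 and ADAM15 stand above 100 TPM, and TIMP2 is the only inhibitor near the main ADAM genes.

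Among the ADAMs, 4 sheddases stood highest. ADAM9, a membrane sheddase, had 161, 161 and 158 TPM in replicates 1, 2 and 3, on 9285, 9343 and 10815 counts. ADAM15, a sheddase with an integrin-binding sequence, had 143, 151 and 132 TPM. ADAM9 was the higher of the pair in each library, by 0.17 ± 0.09 on the log2 scale. ADAM9 ranked 1081 and ADAM15 ranked 1263 among protein-coding entries by mean TPM.

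ADAM10, the main sheddase of Notch receptors and E-cadherin, had 66.4, 65.2 and 64.5 TPM. ADAM17, which releases TNF and several EGF receptor ligands, had 48.1, 44.7 and 40.7 TPM. ADAM10 exceeded ADAM17 in all 3 libraries, by 0.56 ± 0.10 on the log2 scale, and lay below ADAM9 by a log2 difference of 1.29 ± 0.01. With 3 libraries an exact two-sided sign-flip permutation test cannot go below p = 0.25, so differences between genes are given as values. These 4 genes lie on chromosome 8 (ADAM9, 38996986 to 39105260), chromosome 1 (ADAM15, 155051272 to 155062776), chromosome 15 (ADAM10, 58595204 to 58749978) and chromosome 2 (ADAM17, 9489281 to 9555788) of hg38.

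The other 5 genes placed with the sheddases were far lower, ADAM8 and ADAM19 also lying below ADAM22 of the nervous system group. ADAM8, best known from leukocytes, had 3.70, 2.88 and 4.59 TPM, and ADAM19, named meltrin beta, had 0.541, 0.629 and 0.326 TPM. ADAM12 fell just short of the detection minimum with 11, 8 and 10 counts, ADAM28 had 8, 4 and 6 counts and ADAM33 had 0, 1 and 0. In all, 6 of the 9 ADAMs of this group were detected (66.7%, near the 67.2% of protein-coding entries).

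Of the nervous system ADAMs without a zinc motif, ADAM22, a receptor for the secreted protein LGI1, had 5.80, 6.11 and 6.47 TPM. ADAM11 had 2.77, 3.07 and 2.38 TPM, and ADAM23 was not detected, with 2, 0 and 1 counts. Of 8 ADAMs known from testis and sperm, 2 were detected (25%, against 67.2% of protein-coding entries). ADAM32 had 90, 95 and 108 counts (1.70 ± 0.0411 TPM) and ADAM21 had 16, 24 and 36.5 counts, while ADAM20 had 3, 3 and 8. ADAM2, ADAM7, ADAM18, ADAM29 and ADAM30 had at most 3 counts in each library. ADAM5 (3, 1 and 8 counts) and ADAM6 (no counts) are pseudogenes in the annotation. ADAM20 and ADAM21 are neighbouring paralogs, and how reads that match both were counted is not known, so their levels are uncertain. The count of ADAM21 was fractional in replicate 3, while those of ADAM20 were whole.

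ADAM9 heads a run of 5 ADAM genes on chromosome 8 in which the other 4 were far lower. ADAM9 starts 528 kb from the end of FGFR1, the receptor gene that the labels call amplified, with 5 protein-coding entries starting between them. The next gene, ADAM32, stood at 1.70 TPM, and ADAM5, ADAM18 and ADAM2 at 0.146, 0.00511 and 0.0251 TPM. FGFR1 stood at 88.0 ± 3.86 TPM. DNA copy number was not analysed here.

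Both detected genes of this run carry a length that bears on their level. The deposited lengths of ADAM9 and ADAM32 include exons on a second sequence. With exon length on the main chromosome alone ADAM9 stood at 220 TPM and ADAM32 at 3.30 TPM, a length chosen once the files had been seen. ADAM15 was then at 138 TPM. In all, 8 members had such a length, the others being ADAM2, ADAM5, ADAM6, ADAM18, MMP11 and MMP28. How reads matching both sequences were counted is not known, so the counts of these 8 members are uncertain too.

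**Figure D2:**
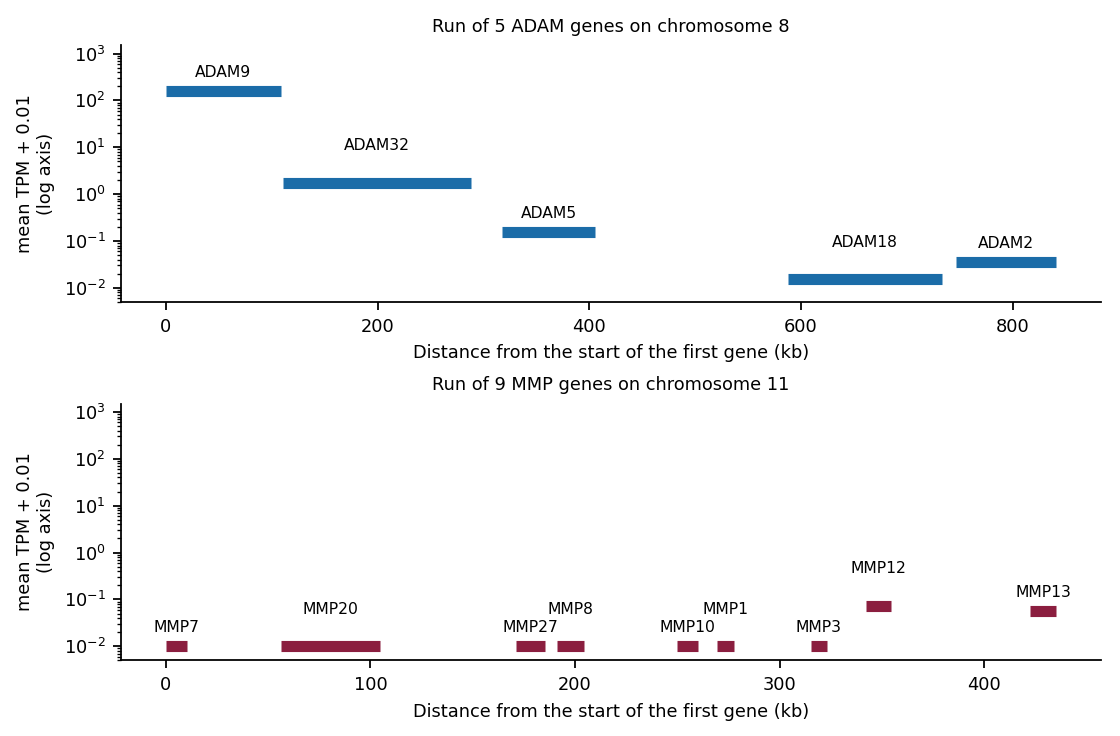
Mean level (TPM plus 0.01, log axis) of member genes along their chromosome, as distance in kb from the start of the first gene of the run, each bar spanning a gene. Only ADAM9 and ADAM32 of the 5 ADAM genes on chromosome 8 were detected, and none of the 9 MMP genes on chromosome 11.

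ADAMTS transcripts came mainly from 3 genes. ADAMTS19, a member of the family without a well-defined substrate, had 30.9, 29.3 and 30.7 TPM on 1556, 1486 and 1832 counts (chromosome 5, 129460410 to 129738683). It exceeded ADAMTS4 by a log2 difference of 1.05 ± 0.06 and made up 44.7 ± 0.642% of the ADAMTS total. An antisense entry overlaps its exons, and without knowing whether strand was used in counting, reads of the gene and of this entry cannot be told apart.

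ADAMTS4, an aggrecanase that cuts the cartilage proteoglycan aggrecan, had 14.2, 14.5 and 15.1 TPM. ADAMTS13, the protease that trims von Willebrand factor and is known mainly from the liver, had 13.2, 13.0 and 15.0 TPM. ADAMTS4 and ADAMTS13 differed by 0.09 ± 0.07 on the log2 scale, and their mean levels, 14.6 ± 0.435 and 13.7 ± 1.08 TPM, lay within the spread of ADAMTS13. VWF, the substrate gene, had 11, 11 and 6 counts.

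Of the 7 proteoglycan-cutting ADAMTS genes 3 were detected (42.9%, against 67.2% of protein-coding entries). Beside ADAMTS4 these were ADAMTS15, with 4.27, 3.60 and 3.12 TPM, and ADAMTS1, with 2.17, 2.48 and 2.67 TPM. ADAMTS5, the other main aggrecanase, and ADAMTS8 had no counts, and ADAMTS9 and ADAMTS20 had at most 2 in a library. The 3 procollagen N-proteinase genes, whose products trim fibrillar procollagens, were not detected or nearly so, with 8, 5 and 5 counts for ADAMTS3, 3, 0 and 1 for ADAMTS14 and 0, 1 and 2 for ADAMTS2. Among the remaining ADAMTS genes, ADAMTS17 had 2.24, 2.64 and 1.37 TPM and ADAMTS7 had 25, 24 and 25 counts. ADAMTS6, ADAMTS10, ADAMTS12 and ADAMTS16 lay between 1 and 7 counts in each library, and ADAMTS18 had none.

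MMP expression rested on membrane-anchored enzymes, and most secreted MMPs were scarce or without counts. MMP15, a transmembrane MMP, had 15.9, 17.5 and 16.3 TPM on 699, 774 and 848 counts (chromosome 16, 58025378 to 58046900) and made up 51.5 ± 3.60% of the MMP total. MMP25, anchored by a lipid and known from leukocytes, had 6.60, 5.42 and 8.01 TPM. MMP16 had 3.97, 3.19 and 4.22 TPM, and MMP24 had 49, 39 and 42 counts. Antisense entries overlap exons of MMP25 and MMP24, so these levels share the uncertainty of ADAMTS19.

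MMP14, the membrane-anchored enzyme that activates the MMP2 precursor together with TIMP2, lay below the minimum with 5, 5 and 10 counts. MMP15 exceeded MMP14 by 6.63 ± 0.46 on the log2 scale. MMP17 had 9, 9 and 3 counts, and MMP23A and MMP23B, overlapping near-identical entries, had at most 2. MMP23A is a pseudogene in the annotation, as are ADAM5 and ADAM6. Thus 4 of the 8 membrane-anchored MMP entries, MMP23A included, were detected (50%, against 67.2% of protein-coding entries).

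Gelatinases were scarce. MMP9 had 19, 20 and 29 counts (0.912 ± 0.127 TPM) and MMP2 had 8, 15 and 6 counts. The log2 ratio of MMP9 over MMP2 was 2.07, 1.24 and 3.09 in the 3 libraries. None of the 3 collagenase genes was detected: MMP13 had 2, 1 and 1 counts, and MMP1 and MMP8 had none. The matrilysin genes MMP7 and MMP26 had no counts.

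MMP11, known as stromelysin 3 and usually described in tumour fibroblasts, was the exception among the stromelysins, with 2.14, 2.15 and 2.20 TPM on 96, 97 and 117 counts. Its deposited length also includes exons on a second sequence, and with exon length on the main chromosome alone it stood at 4.20 TPM. MMP3 and MMP10 had no counts. Of the other MMPs, MMP21 had 2, 4 and 5 counts and MMP19 had 2, 4 and 1, while MMP12, MMP20, MMP27 and MMP28 had at most 3 in any library. Where no count was seen, up to 3 counts remain possible, which for MMP1 corresponds to 0.147 TPM in replicate 1 and for MMP26, the shortest of these genes, to 0.306 TPM.

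**Figure D3:**
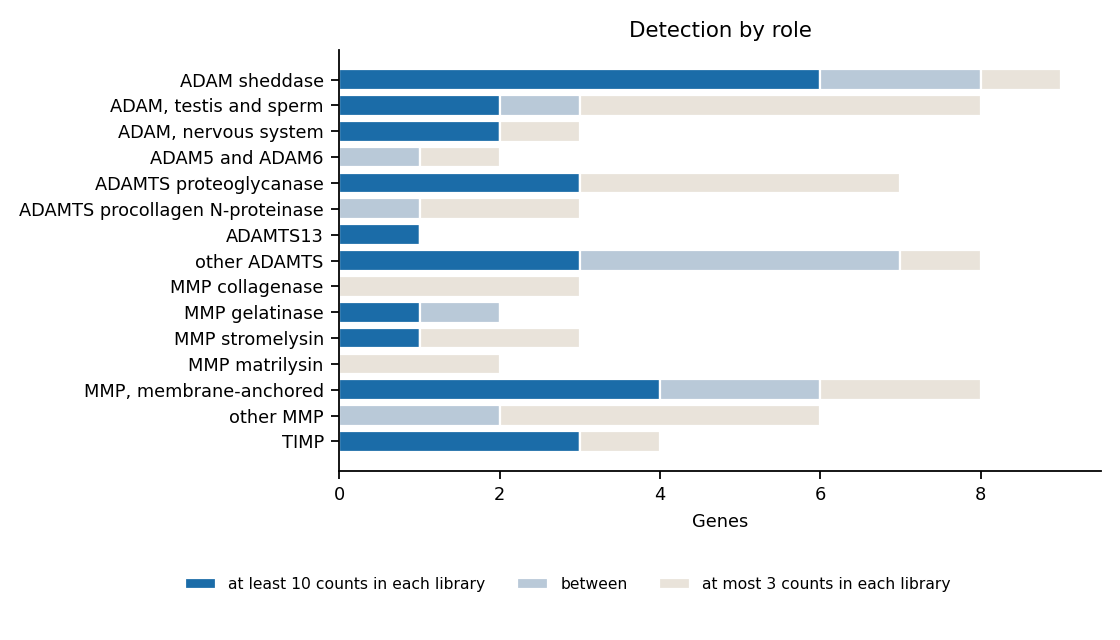
Number of member genes of each role with at least 10 counts in each library, at most 3 counts in each library, or between these limits. The ADAM sheddases have 6 of 9 genes detected and the membrane-anchored MMPs 4 of 8, whereas no collagenase, matrilysin or procollagen N-proteinase passed. Of all protein-coding entries 67.2% passed, near the share of the sheddases and above that of the membrane-anchored MMPs.

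Close to the detection minimum, TIMP3 with 15, 27 and 21 counts, ADAM21 and MMP9 lay just above it, and ADAM12, MMP2 and MMP14 just below.

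TIMP2 was the main inhibitor transcript. It had 58.0, 57.7 and 47.6 TPM on 2099, 2106 and 2045 counts (chromosome 17, 78852977 to 78925390), which placed it below ADAM10 in each library, by 0.27 ± 0.15 on the log2 scale. TIMP1, a secreted inhibitor that is abundant in many tissues, had 6.50, 5.80 and 6.51 TPM on 59, 53 and 70 counts. TIMP3, which binds to the matrix and is the main inhibitor of ADAM17, had 0.276, 0.493 and 0.326 TPM. TIMP4 had no counts, and the 3 counts per library that this allows would correspond to 0.185, 0.184 and 0.156 TPM.

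TIMP2 made up 89.1 ± 1.42% of the TPM of the 4 inhibitors, TIMP1 10.3 ± 1.47% and TIMP3 0.598 ± 0.172%. TIMP1 is a short gene, and without division by length its share was 2.81%. Summed MMP levels were below summed TIMP levels in each library, with log2 ratios of -1.04, -1.02 and -0.70. Summed ADAM levels were above TIMP levels by 2.81 ± 0.10 on the same scale.

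The 9 MMP genes on chromosome 11 from MMP7 to MMP13 (102520508 to 102955734, 435 kb), which are the 3 collagenase genes with MMP3, MMP7, MMP10, MMP12, MMP20 and MMP27, were all among the genes not detected. Promoter windows, from 250 bases before to 50 bases after the start, were at hand from RefSeq (GRCh38.p14) for 39 of the 69 members, 5 of them from this run. These 5 windows held between 2 and 4 CG dinucleotides each, against a median of 29 in the 16 windows of detected members and 14 in all 35116 windows. Median G and C content was 36.3% in the 5 windows and 58.7% in all windows. Motifs were searched for at any position on either strand, and matches were not adjusted for base composition. TATAAA, the sequence of the TATA box, was found in 4 of the 5 windows and in 11.5% of all windows. TGANTCA, the binding motif of the FOS and JUN factors, was found in 3 of the 5 and in 7.71% of all. GGGCGG, a GC box, was in none of the 5, in 14 of the 16 detected members and in 45.0% of all windows. AGGAAG, an ETS motif, was in 1 of the 5 and 33.6% of all. Over all 15 windows of members not detected, this run included, GGGCGG was in 7, TATAAA in 5 and TGANTCA in 3.

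The 120 bases before the RefSeq start are shown for 8 of these members, 5′ to 3′ on the gene's strand, with CG, TATAAA and TGANTCA in capitals. The first 4 belong to members above 10 TPM and the other 4 to members of the chromosome 11 run with no counts, picked as examples. ADAM10 had the fewest CG dinucleotides of the first 4, with 5 in these 120 bases, and MMP8 is the only one of the other 4 without TGANTCA. Among members without counts that are not printed, ADAMTS18, ADAM30 and TIMP4 had 30, 18 and 12 CG dinucleotides over the whole window. None of these had TATAAA or TGANTCA. MMP27 of the run also had neither motif, with 2 CG dinucleotides, whereas MMP26 had TATAAA and 0.
ADAM15 (chr1:155051196-155051315, plus strand): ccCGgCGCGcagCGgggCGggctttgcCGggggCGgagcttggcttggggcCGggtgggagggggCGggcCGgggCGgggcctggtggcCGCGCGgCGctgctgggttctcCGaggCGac
ADAM10 (chr15:58749708-58749827, minus strand): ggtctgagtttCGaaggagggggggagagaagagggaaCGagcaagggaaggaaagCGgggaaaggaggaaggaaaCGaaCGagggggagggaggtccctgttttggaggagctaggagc
ADAM17 (chr2:9555831-9555950, minus strand): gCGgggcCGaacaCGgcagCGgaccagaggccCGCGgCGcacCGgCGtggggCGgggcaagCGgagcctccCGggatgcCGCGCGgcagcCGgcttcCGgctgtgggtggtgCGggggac
MMP15 (chr16:58025634-58025753, plus strand): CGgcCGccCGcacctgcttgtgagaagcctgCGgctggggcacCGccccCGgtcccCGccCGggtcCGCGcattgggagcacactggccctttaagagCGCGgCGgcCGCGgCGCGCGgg
MMP7 (chr11:102530748-102530867, minus strand): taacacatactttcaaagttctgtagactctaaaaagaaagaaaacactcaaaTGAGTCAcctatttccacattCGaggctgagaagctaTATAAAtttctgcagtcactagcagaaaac
MMP10 (chr11:102780629-102780748, minus strand): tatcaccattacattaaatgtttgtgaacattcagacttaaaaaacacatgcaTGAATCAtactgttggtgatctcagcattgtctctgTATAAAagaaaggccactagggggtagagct
MMP20 (chr11:102625333-102625452, minus strand): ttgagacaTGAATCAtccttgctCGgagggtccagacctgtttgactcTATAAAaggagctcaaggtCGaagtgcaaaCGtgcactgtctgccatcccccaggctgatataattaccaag
MMP8 (chr11:102724955-102725074, minus strand): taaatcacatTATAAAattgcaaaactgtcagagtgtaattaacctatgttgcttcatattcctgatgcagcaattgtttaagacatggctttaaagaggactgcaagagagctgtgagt

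Counted from the start in negative numbers, the first base of the TATAAA match is at -30 in MMP7, -31 in MMP10, -72 in MMP20 and -110 in MMP8. That of the TGANTCA match is at -67 in MMP7 and MMP10 and at -112 in MMP20. CG counts and levels did not run in the same order in all members, and no relation between them was tested. ADAMTS2, ADAMTS14 and ADAM23 had 47, 42 and 41 CG dinucleotides and were not detected, while ADAMTS13, at 13.7 ± 1.08 TPM, had 7 and ADAM21 had 1. The median was 12 in the 15 windows of members not detected and 17 in the 8 that lay between. The RefSeq start differs from that of the deposited entry for several members, most of all for ADAMTS13 and MMP26. The CG counts of ADAMTS13 and MMP26, and the TATAAA match of MMP26, may therefore not describe their deposited starts. In ADAM10, MMP15, TIMP3 and TIMP4, among others, the RefSeq start lies inside the deposited entry. The bases printed for ADAM10 and MMP15 lie wholly inside it. Matches describe these windows only, and the promoters in use in CAMA1 cells were not measured.

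**Figure D4:**
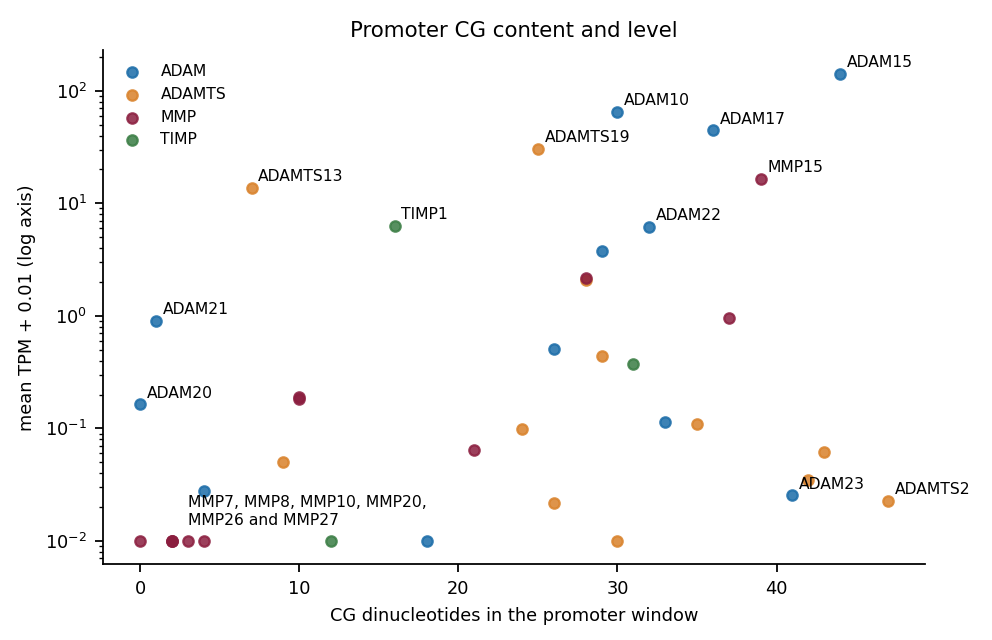
CG dinucleotides in the RefSeq promoter window against mean level (TPM plus 0.01, log axis) for the 39 members with a window, coloured by family. MMP7, MMP8, MMP10, MMP20, MMP26 and MMP27 lie at the lower left with at most 4 CG dinucleotides and no counts, and ADAM15 at the upper right with 44. The windows of MMP26 and ADAMTS13 may not describe their deposited starts.

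The spread between libraries was set against sampling noise for the 26 members that passed edgeR's filter on low counts. A chi-square test of variation beyond Poisson sampling, on TMM-scaled counts with Benjamini-Hochberg adjustment, called 9 of 26 members, or 34.6%, against 41.6% of all 14453 genes tested. Against the trended negative binomial dispersion, the spread usual for genes of like abundance, 0 of the 26 members passed and 1.22% of all genes did. At an unadjusted p under 0.05 this second test, also on edgeR's estimates, picked 1 member, ADAMTS17, against 5.93% of all genes. The median coefficient of variation was 9.44% in the 26 members and 6.93% in all genes, without matching for abundance.

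Among the 9, TIMP2 had 78.5, 79.2 and 67.2 CPM (counts scaled to library size with TMM) in replicates 1, 2 and 3 (adjusted p = 1.98e-07, edgeR with the Poisson chi-square). Replicate 3 was the low library. ADAM15 had 181, 195 and 175 CPM (adjusted p = 1.10e-06, same test). ADAMTS17, with 5.27, 6.28 and 3.35 CPM, had the widest range of the 9, its highest library 1.87 times its lowest, and was again lowest in replicate 3. Its deposited counts, 140.68, 166.66 and 102.18, were fractional in every library, as were those of ADAMTS4, and the source of the fractions was not tested.

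MMP25 with 8.67, 7.22 and 11.0 CPM, ADAM8 with 4.52, 3.57 and 5.85 CPM and MMP16 with 9.31, 7.60 and 10.3 CPM were lowest in replicate 2 and highest in replicate 3. ADAMTS13, ADAM17 and ADAMTS15 complete the 9. In replicate 3 ADAMTS13 was highest, while ADAM17 and ADAMTS15 were lowest. ADAM10 and ADAM9 had the narrowest ranges of the 26, with 124, 123 and 125 CPM for ADAM10 and 347, 351 and 355 CPM for ADAM9. Without replicate 3 only ADAM15 of the 26 members was called by the Poisson test, as were 1174 of 14607 genes in all.

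**Figure D5:**
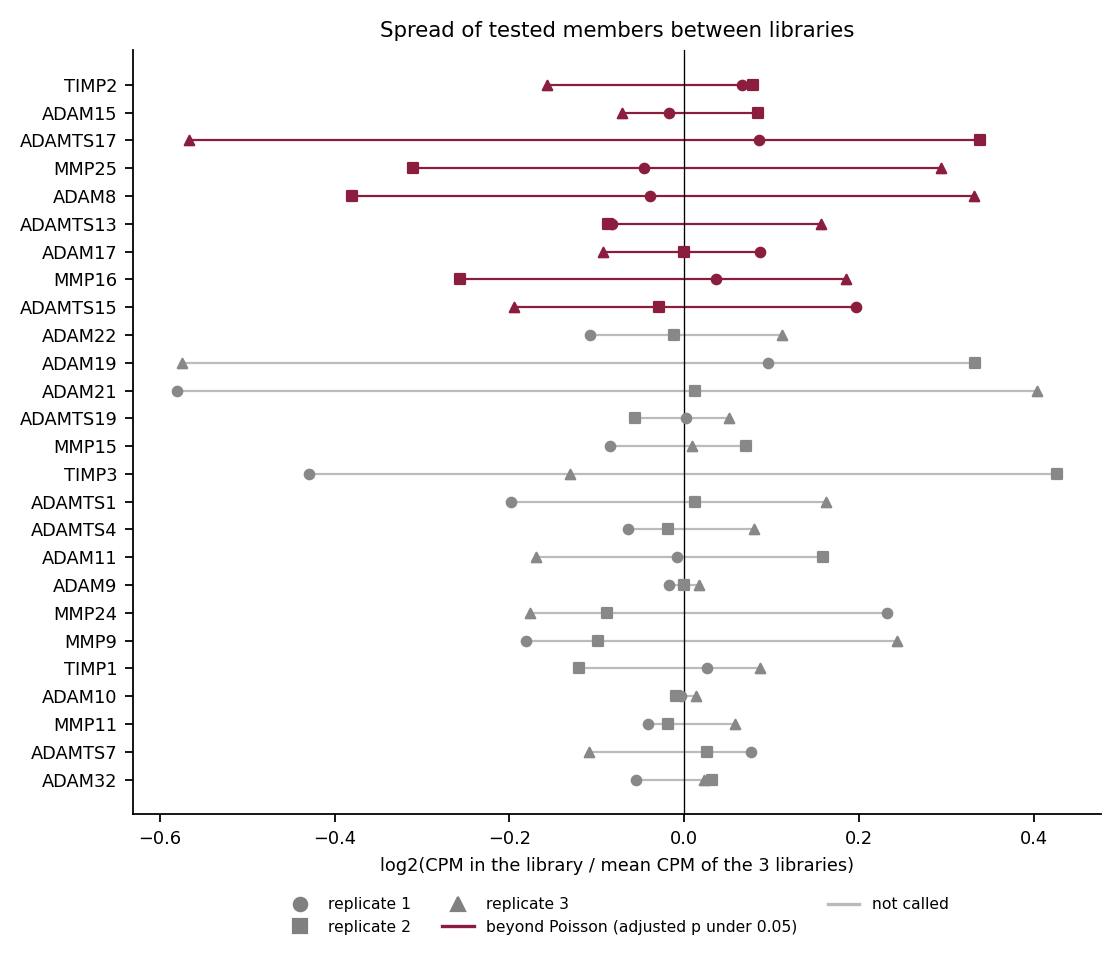
Deviation of each library from the mean of the 3, as log2 of CPM over mean CPM, for the 26 tested members ordered by the p-value of the Poisson test, with called members in dark red. Replicate 3 is at the end of the range in all 9 called members, and ADAM10, ADAM9 and ADAM32 spread least.

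Of the genes known to activate or carry these proteases, some lists were detected in full and others in part. The same minimum was passed by 67.2% of protein-coding entries. The short partner lists, here and in the next paragraph, were not tested against that share. FURIN, a convertase that removes the inhibitory propeptide of many ADAMs and membrane-anchored MMPs, had 36.0, 40.5 and 42.8 TPM, and 3 of the 4 convertase genes were detected, PCSK5 having 1, 4 and 2 counts. All 3 ADAM17 carrier genes were detected, led by RHBDF1, which codes for an inactive rhomboid that escorts ADAM17 to the cell surface, at 110 ± 3.86 TPM. All 6 ADAM10 tetraspanin partners were detected, with TSPAN15 at 244 ± 10.3 TPM. BSG, an inducer of MMPs in neighbouring cells, stood at 378 ± 12.0 TPM, whereas RECK, a membrane inhibitor of MMPs, had 14, 15 and 10 counts.

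Of 4 genes of the plasminogen system, which activates secreted MMPs, the receptor gene PLAUR was detected with 69, 87 and 77 counts, PLAT had 17, 7 and 19 counts, and PLAU and PLG were not detected. Of 5 other metzincin protease genes only BMP1, a procollagen C-proteinase, was detected, at 3.74 ± 0.629 TPM. The ADAMTS-like genes, relatives without a protease domain, had 4 of 6 detected, with ADAMTSL5 highest at 5.98 ± 0.803 TPM.

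Markers fitted the labelled cell type. The 6 luminal epithelial markers were all detected and summed to between 7165 and 8841 TPM per library. Of 6 fibroblast markers only COL1A1 was detected, and the list summed to between 10.3 and 10.8 TPM, with COL1A2, DCN and LUM at 0. Of 5 macrophage and leukocyte markers only CD68 was detected (sum 2.96 to 4.05 TPM), with PTPRC at 3, 3 and 2 counts. No neutrophil marker (sum 0 to 0.0369 TPM) and no endothelial marker (0.0719 to 0.253 TPM) of the 4 each was detected. In bulk RNA, fewer cells expressing a gene and less RNA per cell cannot be told apart.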

How the data were processed

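The authors' deposited table held expected counts per gene for 3 CAMA1 libraries, not always whole, with a length per gene; the tools behind it are TopHat, Subread and featureCounts on hg38, per the submitters' processing notes. Their versions and settings, and how strand and reads with several matches were handled, are not given in the sources used here. Per the labels' protocols, the library kit marks strand. All value columns were used. Gene types came from GENCODE 29 and RefSeq by symbol or synonym (25401 of 26485 entries matched). TPM was computed from deposited counts and lengths. Counts were rounded and tested in edgeR 4.0.16 (R 4.3.3) with TMM scaling, its filter on low counts, a Pearson chi-square with 2 degrees of freedom, and Benjamini-Hochberg adjustment at 0.05 over all genes tested. The test was also tried on simulated counts, with results not given here. DESeq2 1.42.0 gave size factors for an alternative. Zinc sites were read from the longest GENCODE coding transcript with a consensus (CCDS) tag where one exists, and aligned with Biopython 1.88.

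The members, roles and lists were chosen with earlier results of these data known. The genes named are the 4 TIMPs, members at 10 TPM or above, the 2 highest of each role, the 3 members on either side of the detection minimum and the highest partner gene of each role; others named account for all members. Limits set by 3 counts reflect counting error alone. Replicates were not pooled, and depth limits statements on members under 10 counts.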

Additional observations from a re-analysis of the deposited data

How the results depend on the processing

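Counting members as detected from 1 count in each library gave 43 in place of 26, whereas 20 counts or a mean of 1 TPM kept the number within 1.5 times. Leaving out a library gave 26 to 27 detected members, a median level of 0.0815 to 0.106 TPM, and 1 to 8 members varying beyond Poisson sampling; Bonferroni adjustment left 3 of the 9. The number varying beyond the negative binomial trend was 0 under every alternative run. Over detected members alone the median was 3.76 TPM, and over all members on CPM it was 0.162 CPM. On CPM the shares of TIMP1, TIMP2 and TIMP3 were 2.81%, 96.2% and 0.970%, the log2 ratio of MMP over TIMP genes was -0.55, and the ADAM, ADAMTS and TIMP families held 74.5%, 12.6% and 7.67%. With main-chromosome exon length, an alternative chosen after seeing the data, these families held 75.3%, 10.3% and 9.24%. CPM omits division by length, which sets its shifts by construction. Main-chromosome length, other cutoffs and the stricter adjustment likewise change the values by definition. The cause of the shifts on leaving out a library was not tested. No paired analysis was possible because the series holds 1 group. Depth limits what can be said of members under 10 counts.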
